A study of Mus musculus with 10 samples.

Results

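The enzymes and the receptor described here act on the long-chain fatty acids that omega-3 diets supply. The 7 genes were chosen from the 33538 human genes of the count table and are not a full list of such genes. They are the lipoxygenases ALOX5 and ALOX15, the lipoxygenase partner ALOX5AP, the hydrolases LTA4H, EPHX1 and EPHX2, and the receptor FFAR4. They were picked by name as a pathway, with earlier results of these data known, by a rule that uses no measured value. Each was found in the table by its Ensembl identifier (ENSG00000012779 for ALOX5, ENSG00000132965 for ALOX5AP, ENSG00000161905 for ALOX15, ENSG00000111144 for LTA4H, ENSG00000143819 for EPHX1, ENSG00000120915 for EPHX2 and ENSG00000186188 for FFAR4). The table holds identifiers only, so the symbols are those under which the genes were chosen.

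RNA came from tumours of the human medulloblastoma line DAOY, an established cell line, implanted in the flank of nude mice, which lack T cells and keep their myeloid cells. Every library was taken after 30 days of treatment, and the age of the mice is not given in the sources used here. Mice fed ordinary chow were the controls (n = 3), one treated group received an oil of docosahexaenoic acid (DHA, labelled DHA-oil, n = 3), and the other received an oil labelled Fish-oil (n = 4). The design has an arm that joins eicosapentaenoic acid (EPA) to DHA. Fish oil is read here as that arm, which the labels do not spell out.

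Total counts of the 10 libraries lay between 6187116 and 10035702. The labels do not say which mouse gave which library. Each p-value therefore reflects only how much these samples scatter, and part of that may be technical. Fish oil replicates 2 and 4 stood apart from the rest on the first principal component (26.4% of the variance), at -21.4 and -52.9 against -1.71 to 19.1 for the other 8 libraries. The results on ALOX5AP and EPHX2 are therefore also given without them. No identifier outside the 7 genes was paired with a name, so markers of the tumour and of host cell types were not measured.

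Lipoxygenases add oxygen to polyunsaturated fatty acids and so begin the synthesis of leukotrienes and of the lipid mediators that end inflammation. ALOX5 works with ALOX5AP, a membrane protein that hands it the fatty acid, and LTA4H turns the unstable leukotriene they make into a chemoattractant for neutrophils. Epoxide hydrolases open the epoxides that cytochrome P450 enzymes make from arachidonic acid, EPA and DHA, while FFAR4 is a cell-surface receptor for long-chain fatty acids, omega-3 acids included. Myeloid cells are known as the main site of ALOX5 and ALOX5AP expression.

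Expression was judged first. With a filter that asks for about 10 counts in at least the smallest group (a cutoff of 1.149 CPM, reads of a gene scaled to a common library total), 5 of the 7 genes passed and were tested among 16013 genes. These were ALOX5, ALOX5AP, LTA4H, EPHX1 and EPHX2, and each had counts in all 10 libraries. ALOX5 reached 10 counts in 7 libraries and ALOX5AP in 6. For ALOX5AP all 3 DHA oil libraries (0.684 to 0.946 CPM) and fish oil replicate 1 (1.12 CPM) lay under the cutoff. It thus passed through control and the other fish oil libraries. ALOX15 and FFAR4 did not pass.

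FFAR4, the omega-3 receptor, had 0 counts in every library of every diet. A count of 0 was taken to allow up to 3 counts. That is 0.0353 CPM over the 10 libraries together, 0.123 CPM over the controls, 0.106 CPM over DHA oil and 0.0923 CPM over fish oil. In a single library the limit lay between 0.293 and 0.480 CPM. Human FFAR4 mRNA was thus not detectable at this depth with any diet. Only human genes were counted, so the receptor gene of the mouse host was not measured. These limits, like all counting intervals given here, cover counting error only.

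ALOX15, the lipoxygenase that oxygenates DHA on the route to pro-resolving mediators, had 4 counts in all. DHA oil replicate 2 held 2 of them, and control replicate 3 and fish oil replicate 2 held 1 each. The other 7 libraries had none. The counts of each diet lay under the limit of 3 counts, so no fold change is given. The mean was 0.0461 CPM in control, 0.0652 CPM in DHA oil and 0.0258 CPM in fish oil. An exact two-sided permutation test of CPM gave p = 1.0 for both oils against control, with 0.0167 as the smallest p that these values, most of them tied at 0, allow in any arrangement. The same exact test gave p = 1.0 for DHA oil against control, where the smallest is 0.4, and 0.857 for fish oil set against either other diet, where the smallest is 0.286.

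ALOX5AP, the activating partner of 5-lipoxygenase, was the only gene of the 5 tested without overlap between diets. Control replicates 1, 2 and 3 stood at 2.23, 2.61 and 3.73 CPM, from 21, 20 and 27 counts. DHA oil replicates 1, 2 and 3 stood at 0.946, 0.684 and 0.737 CPM, from 8, 7 and 7 counts. Fish oil replicates 1 to 4 stood at 1.12, 1.86, 1.82 and 1.35 CPM, from 7, 18, 14 and 12 counts. All controls lay above all fish oil libraries, and all fish oil libraries lay above all DHA oil libraries, so no pair of diets overlapped. Of the 16013 genes tested, 3 had their diets apart in this order (0.0187%) and 13 in any order (0.0812%). Whether these are more genes than randomly assigned diets would give was not tested, so the small shares do not set ALOX5AP apart from chance.

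**Figure D1:**
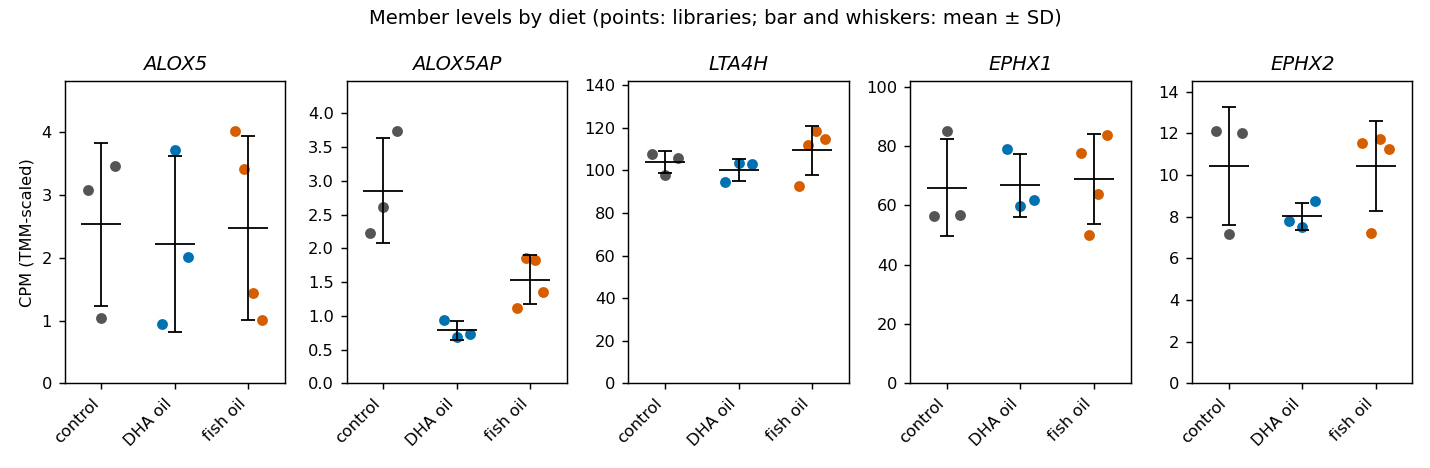
Levels of the 5 tested genes in CPM (vertical axes from 0, a scale of its own for each gene) in each library (points) by diet, with the mean and SD of each diet. ALOX5AP has no overlap between diets, from 2.23 to 3.73 CPM in control, 1.12 to 1.86 CPM in fish oil and 0.684 to 0.946 CPM in DHA oil, while the diets overlap for the other 4 genes.

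Control libraries had a mean ALOX5AP level of 2.86 ± 0.782 CPM (SD, n = 3). The mean was 0.789 ± 0.138 CPM with DHA oil (SD, n = 3) and 1.54 ± 0.362 CPM with fish oil (SD, n = 4). In DHA oil it was 3.57-fold lower than in control, a log2 fold change of -1.84 ± 0.37 (SE; 95% interval -2.63 to -1.04). In fish oil it was 1.81-fold lower, with a log2 fold change of -0.86 ± 0.32 (SE; -1.54 to -0.18). With both oils in 1 contrast it was 2.55-fold lower, at -1.35 ± 0.29 (SE; -1.97 to -0.73). These comparisons share the 3 control libraries. In bulk tumours, fewer cells of a type and less RNA per cell cannot be told apart. Whether reads of host transcripts are among the few ALOX5AP counts was not tested, since removal of mouse reads is not given.

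None of these differences passed the threshold of 0.05 after adjustment over all 16013 genes (Benjamini-Hochberg, quasi-likelihood F test of edgeR). For DHA oil against control the unadjusted p was 0.000183, the 10th smallest of all genes, and the adjusted p was 0.293 (0.0502 to 1.00 over the alternatives), with 3 of 3 DHA oil libraries below every control. In that comparison 0% of genes were called, and 5.93% had every DHA oil library below every control. For both oils against control the unadjusted p was 0.000346, the 31st smallest, and the adjusted p was 0.179 (0.0797 to 1.00), with 7 of 7 oil libraries below every control. Of all genes, 0.131% were called there and 0.662% had every oil library below every control. The share called rested on single libraries, since the 21 genes behind it became 3 without control replicate 1 and 35 without control replicate 2. For fish oil against control the unadjusted p was 0.0167 and the adjusted p was 0.999 (0.529 to 1.00), beside 0.00624% of genes called and 2% lower without overlap.

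Fish oil and DHA oil were also set against each other. ALOX5AP was 1.97-fold higher in fish oil than in DHA oil, a log2 fold change of 0.98 ± 0.37 (SE, 95% interval 0.18 to 1.77). Here 4 of 4 fish oil libraries stood above the highest DHA oil library. The edgeR quasi-likelihood test gave an unadjusted p of 0.0196 and an adjusted p of 0.875 (0.405 to 1.00 over the alternatives). Between the oils 0% of genes were called, and 2.87% were higher in fish oil without overlap.

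**Figure D2:**
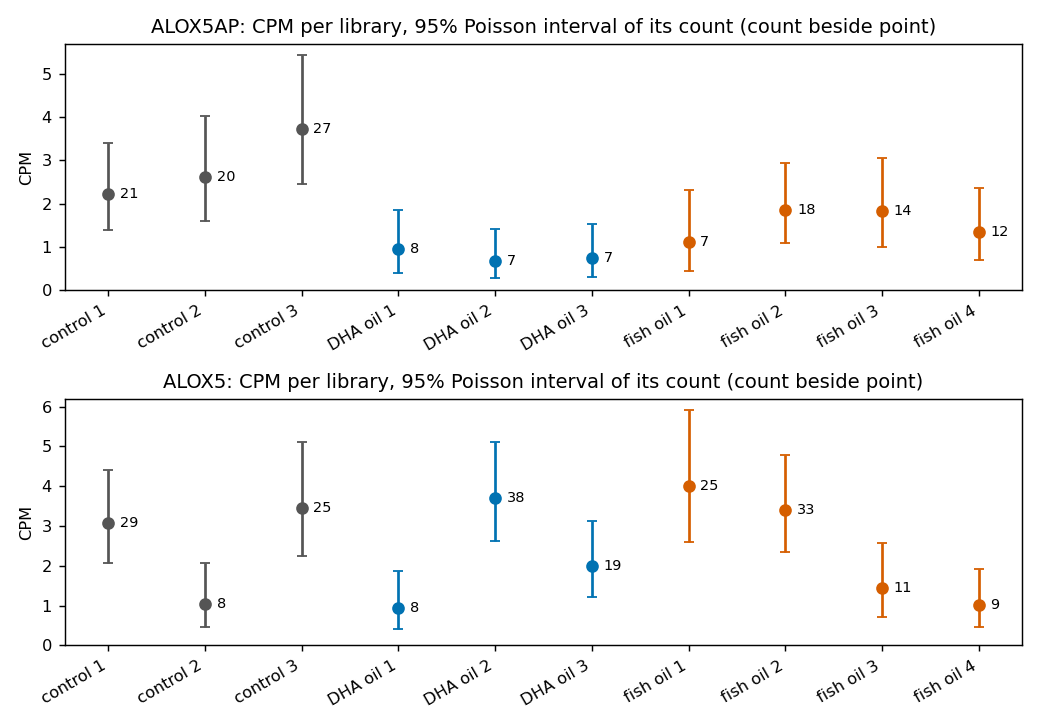
CPM of ALOX5AP (top) and ALOX5 (bottom) in each library, with the exact 95% Poisson interval of its count (whiskers) and the count beside each point. For ALOX5AP the intervals of all controls overlap those of some oil libraries, and for ALOX5 libraries of 1 diet differ beyond their intervals, as in DHA oil with 8 and 38 counts.

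The ALOX5AP counts are small, and counting error alone is wide in a single library. The 7 counts of DHA oil replicate 2 have an exact 95% Poisson interval of 2.81 to 14.4 counts, and the 21 of control replicate 1 one of 13.0 to 32.1 counts. Summed over a diet, control held 68 counts, DHA oil 22 and fish oil 51. The summed level was 2.80 CPM in control (interval 2.17 to 3.55), 0.781 CPM in DHA oil (0.489 to 1.18) and 1.57 CPM in fish oil (1.17 to 2.06). The intervals of control and of each oil do not overlap, whereas those of the oils meet at their edges. They leave out the spread between libraries of a diet and so are no test of a difference between diets.

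ALOX5AP was also set against a gene of the same library. Per 1000 LTA4H counts of the same library, a ratio that no scaling factor moves and that was chosen after the data were seen, ALOX5AP had 20.7, 26.7 and 35.3 counts in control replicates 1, 2 and 3. It had 10.03, 6.60 and 7.16 in DHA oil replicates 1, 2 and 3. In fish oil replicates 1 to 4 it had 12.1, 16.6, 15.4 and 11.8. The diets again did not overlap. LTA4H itself varied little over the 10 libraries (SD 8.12% of its mean). The ratio therefore nearly repeats the CPM values and is no separate support.

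Without fish oil replicates 2 and 4 the ALOX5AP log2 fold change was -1.38 for both oils against control, -1.84 for DHA oil, -0.92 for fish oil and 0.92 between the oils. The direction was the same in every alternative run, and no alternative made it a call. Leaving out control replicate 3, the highest library, brought the log2 fold change nearest to 0 in each comparison with control, at -1.12 for both oils, -1.61 for DHA oil and -0.63 for fish oil.

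**Figure D3:**
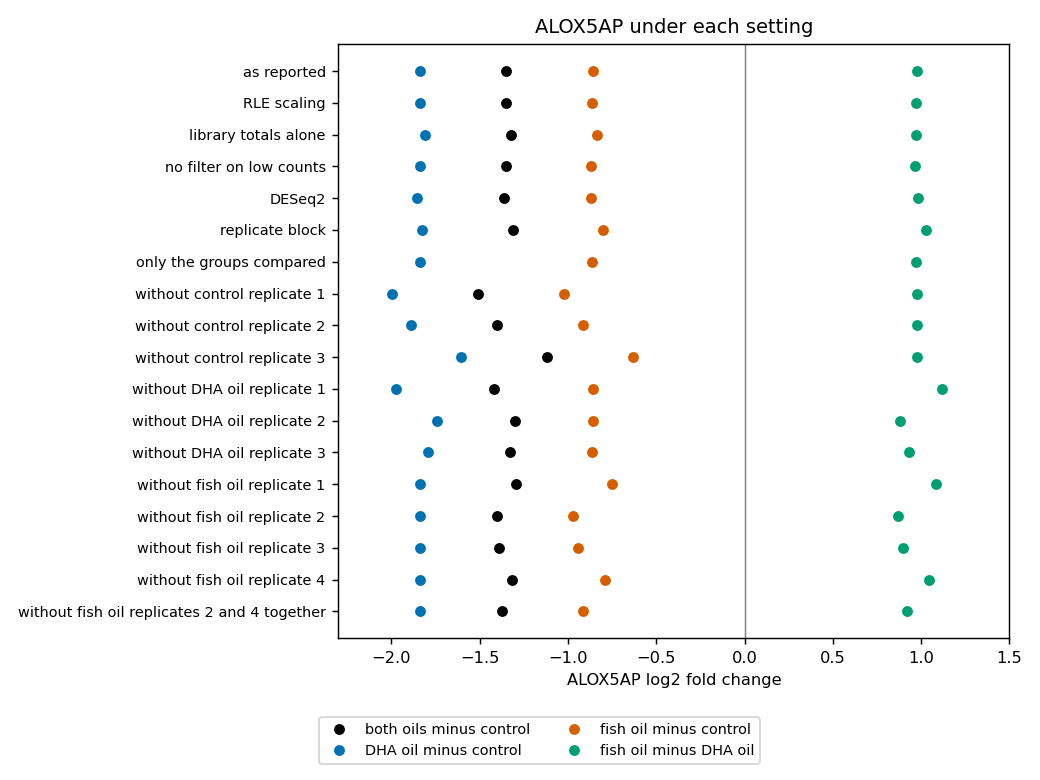
Log2 fold change of ALOX5AP (horizontal axis) under each setting (rows) for the 4 comparisons (colours). The comparisons with control stay below 0, from -1.999 to -1.61 for DHA oil, -1.51 to -1.12 for both oils and -1.02 to -0.63 for fish oil, and that between the oils stays above 0, from 0.87 to 1.12.

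ALOX5, the 5-lipoxygenase itself, did not follow its partner. Control replicates 1, 2 and 3 stood at 3.08, 1.05 and 3.46 CPM. DHA oil replicates 1, 2 and 3 stood at 0.946, 3.71 and 2.00 CPM. Fish oil replicates 1 to 4 stood at 4.00, 3.41, 1.43 and 1.01 CPM. Each diet held libraries near 1 CPM and libraries above 3 CPM, and all diets overlapped.

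Control libraries had a mean ALOX5 level of 2.53 ± 1.30 CPM (SD, n = 3). The mean was 2.22 ± 1.40 CPM with DHA oil (SD, n = 3) and 2.46 ± 1.46 CPM with fish oil (SD, n = 4). The log2 fold change was -0.17 for DHA oil against control (95% interval -1.36 to 1.03), -0.06 for fish oil (-1.19 to 1.07), -0.11 for both oils (-1.13 to 0.91) and 0.11 for fish oil against DHA oil (-1.02 to 1.23). These intervals leave room for a change of 2-fold in either direction for each oil against control. The spread between libraries of one diet was wide, with a biological coefficient of variation of 0.438 in the fit. This was above that of 99.2% of the genes tested, against 0.198 for ALOX5AP. The 38 counts of DHA oil replicate 2 have a Poisson interval of 26.9 to 52.2 counts, and the 8 of DHA oil replicate 1 one of 3.45 to 15.8 counts.

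LTA4H, the hydrolase that makes the leukotriene chemoattractant, was the steadiest of the 5 genes across the libraries. Control replicates 1, 2 and 3 stood at 107.8, 98.0 and 105.8 CPM. DHA oil replicates 1, 2 and 3 stood at 94.3, 103.6 and 103.0 CPM. Fish oil replicates 1 to 4 stood at 92.5, 111.9, 118.3 and 114.95 CPM. Fish oil held both the lowest and the highest library, and the diets overlapped.

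Control libraries had a mean LTA4H level of 103.9 ± 5.16 CPM (SD, n = 3). The mean was 100.3 ± 5.19 CPM with DHA oil (SD, n = 3) and 109.4 ± 11.5 CPM with fish oil (SD, n = 4). The log2 fold change was -0.05 for DHA oil against control (95% interval -0.31 to 0.21), 0.08 for fish oil (-0.17 to 0.32), 0.01 for both oils (-0.21 to 0.23) and 0.13 for fish oil against DHA oil (-0.12 to 0.37). The interval for both oils ends at 1.16-fold lower and 1.18-fold higher, so larger differences lie outside it. The smallest adjusted p of edgeR's quasi-likelihood test over the 4 comparisons was 0.878.

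EPHX1, the microsomal epoxide hydrolase, which also detoxifies foreign epoxides, overlapped between all diets. Control replicates 1, 2 and 3 stood at 56.4, 84.9 and 56.7 CPM. DHA oil replicates 1, 2 and 3 stood at 79.1, 59.7 and 61.7 CPM. Fish oil replicates 1 to 4 stood at 77.8, 49.95, 63.7 and 83.9 CPM. In each diet 1 or 2 libraries were above 75 CPM, and the rest lay below 65 CPM.

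Control libraries had a mean EPHX1 level of 66.0 ± 16.4 CPM (SD, n = 3). The mean was 66.8 ± 10.7 CPM with DHA oil (SD, n = 3) and 68.8 ± 15.2 CPM with fish oil (SD, n = 4). The log2 fold change was 0.02 for DHA oil against control (95% interval -0.42 to 0.45), 0.06 for fish oil (-0.35 to 0.47), 0.04 for both oils (-0.33 to 0.41) and 0.04 between the oils (-0.36 to 0.45). For both oils the interval ends at 1.26-fold lower and 1.33-fold higher.

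EPHX2, the soluble epoxide hydrolase, which turns epoxides of arachidonic acid, EPA and DHA into diols, was lowest on average in DHA oil. Control replicates 1, 2 and 3 stood at 12.1, 7.19 and 12.03 CPM. DHA oil replicates 1, 2 and 3 stood at 7.80, 7.53 and 8.74 CPM. Fish oil replicates 1 to 4 stood at 11.5, 7.22, 11.7 and 11.3 CPM. The DHA oil libraries lay close together, but control replicate 2 and fish oil replicate 2 were lower than all of them, so the diets overlapped.

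Control libraries had a mean EPHX2 level of 10.4 ± 2.81 CPM (SD, n = 3). The mean was 8.02 ± 0.637 CPM with DHA oil (SD, n = 3) and 10.4 ± 2.15 CPM with fish oil (SD, n = 4). The log2 fold change was -0.38 for DHA oil against control (95% interval -0.90 to 0.14), -0.01 for fish oil (-0.50 to 0.48), -0.20 for both oils (-0.64 to 0.24) and 0.37 for fish oil against DHA oil (-0.12 to 0.86). In edgeR's quasi-likelihood test the adjusted p was 1.00 for DHA oil against control and 0.875 between the oils. Single libraries moved these values. For DHA oil against control the log2 fold change was -0.26 without control replicate 1, -0.27 without control replicate 3 and -0.59 without control replicate 2 (edgeR unadjusted p = 0.0287, adjusted p = 1.00). For both oils it was -0.08, -0.09 and -0.40 in that order, and -0.12 without fish oil replicate 2. Without fish oil replicates 2 and 4 it was -0.12 for both oils and 0.53 between the oils (for the latter, edgeR unadjusted p = 0.0403, adjusted p = 0.99955). With single libraries left out, the log2 fold change between the oils ran from 0.31 to 0.52. It was highest without fish oil replicate 2 (edgeR unadjusted p = 0.0335, adjusted p = 0.983).

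**Figure D4:**
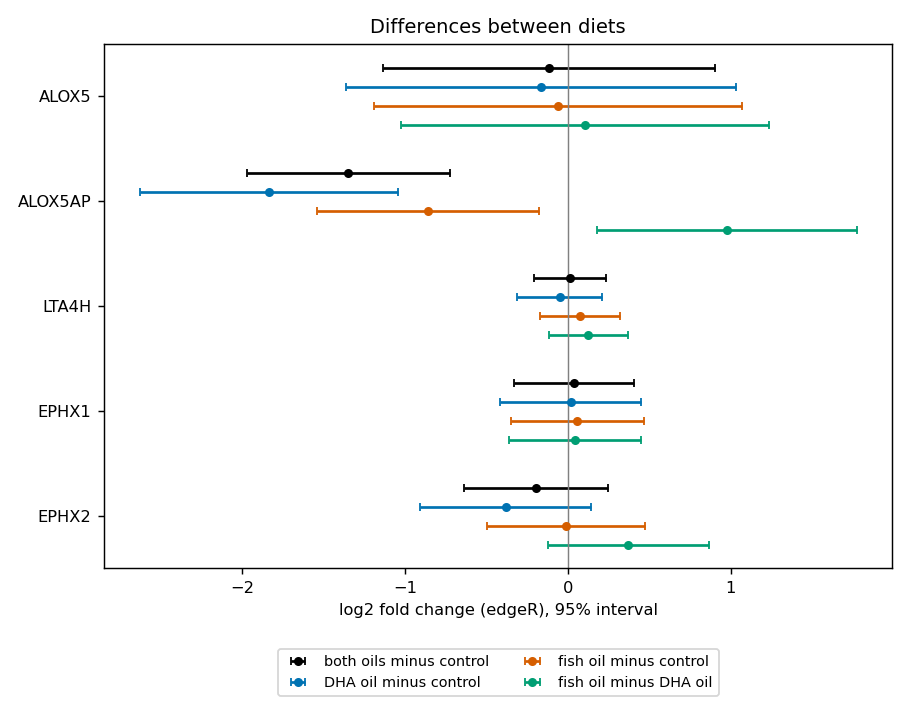
Log2 fold change (horizontal axis, edgeR) of the 5 tested genes in the 4 comparisons (colours), with 95% intervals. The intervals of ALOX5AP lie to one side of 0 in each comparison, although none passed adjustment over all genes, and those of the other genes include 0, narrowest for LTA4H and widest for ALOX5.

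Across the set, 0 of the 5 tested genes were called by edgeR in any of the 4 comparisons, and 0 by DESeq2. At an unadjusted p under 0.05 there was 1 of 5 in each, ALOX5AP every time. Over all genes, that rule took 2.62% for both oils against control, 2.74% for DHA oil, 3.48% for fish oil and 4.84% between the oils. The median log2 fold change of the 5 was -0.11, -0.17, -0.01 and 0.13 in that order, beside a median between 0.00 and 0.01 over all genes tested.

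The 5 genes were also compared with each other over the 10 libraries, in 10 pairs, on log2 CPM. The strongest relation was between ALOX5 and EPHX1, with Pearson's r = -0.685 (permutation p = 0.0361, adjusted over the pairs 0.361) and Spearman's rho = -0.588 (permutation p = 0.0805, adjusted 0.757). It did not pass adjustment. Without DHA oil replicate 1 and fish oil replicate 4, the libraries farthest from the median of ALOX5, r was -0.502. ALOX5 and ALOX5AP, whose products work together, had r = 0.04 (permutation p = 0.909, adjusted 0.941) and rho = -0.03 (permutation p = 0.947, adjusted 0.947), and r was -0.202 without those same libraries. No batch is given in the labels, so no relation could be recomputed within one.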

How the data were processed

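The deposited values are raw counts of reads for each human Ensembl gene, and their totals show no normalisation by the authors. The submitters' processing notes name the aligner STAR, the build GRCh38 and the counter HTSeq 0.9.0. Libraries were stranded poly(A) mRNA libraries, per the labels' protocols. Whether counting used strand, which annotation it used and whether mouse reads were removed is not given in the sources used here, so reads of host transcripts similar to human ones, or of overlapping genes, could be among the counts.

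Genes were filtered with filterByExpr (minimum count 10), scaled by TMM and fitted in edgeR 4.0.16 under R 4.3.3 (quasi-likelihood F test, diet as the only factor, all 10 libraries in 1 fit, Benjamini-Hochberg over 16013 genes, threshold 0.05). CPM uses TMM effective totals, and log2 CPM a prior count of 2. The SE is the absolute log2 fold change over the square root of F, and intervals are 95%. Correlations used 100000 permutations. Alternatives were RLE scaling, library totals, no or a strict filter, DESeq2 1.42.0, a fit of only the groups compared, a replicate block and leaving libraries out.

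All 7 genes were named by rule, and for the 2 with most counts the gene most alike was sought. The genes, lists and tests were chosen with earlier results of these data known. A further 113 symbols in 6 lists (other oxylipin genes, cell type markers) matched 0 identifiers in the reference tables used here, which cover mouse genes, and were not measured.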

Additional observations from a re-analysis of the deposited data

Results flagged for a closer look

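Only fish oil, with 4 libraries, was searched for a library far from the others. This was done for the 6 genes with any counts. Fish oil replicate 2 stood apart in 2 of them. Chance alone sets a library apart in about 1 of 20 such groups. EPHX2 stood at 7.22 CPM in fish oil replicate 2 against 11.3 to 11.7 CPM in the other 3, a gap of 0.896 of the range. Without that library the fish oil minus control log2 fold change of EPHX2 was 0.14 in place of -0.01. ALOX15 stood at 0.103 CPM in fish oil replicate 2, which is 1 count, and at 0 in the others. A single count among 4 libraries always stands apart in this way, so it is no find. Control and DHA oil, with n = 3 each, were not searched. Control replicate 2 also lay far from the other controls. It stood at 7.19 against 12.03 and 12.1 CPM for EPHX2, and at 84.9 against 56.4 and 56.7 CPM for EPHX1.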

How the results depend on the processing

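No alternative made a call of any of the 5 tested genes. ALOX5AP kept its direction in all of them in each comparison, the strict filter leaving it and ALOX5 untested. Of the 347 member fold changes recomputed, 43 changed sign, all of ALOX5, LTA4H, EPHX1 or EPHX2, whose fold changes lay near 0, and the cause was not tested. With library totals alone EPHX2 stood at 0.011 for fish oil against control, and r of ALOX5 with LTA4H was 0.016. Without fish oil replicates 2 and 4 the log2 fold change against control was -0.014 for LTA4H with both oils, and 0.064 for ALOX5 and 0.15 for EPHX2 with fish oil. Without the 2 libraries farthest from the median, r was -0.202 for ALOX5 with ALOX5AP, -0.013 for ALOX5AP with EPHX2 and 0.099 for EPHX1 with EPHX2.

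With each library left out in turn, the log2 fold change for both oils against control ran from -0.47 to 0.15 for ALOX5, -0.026 to 0.048 for LTA4H, -0.068 to 0.26 for EPHX1 and -0.40 to -0.076 for EPHX2. For DHA oil against control it ran from -0.76 to 0.18 for ALOX5, -0.12 to 0.24 for EPHX1 and -0.59 to -0.26 for EPHX2. For fish oil against control it ran from -0.42 to 0.21 for ALOX5, -0.054 to 0.28 for EPHX1 and -0.22 to 0.14 for EPHX2. Between the oils it ran from -0.24 to 0.70 for ALOX5 and -0.071 to 0.18 for EPHX1. The ALOX15 difference ran from -0.029 to 0.043 CPM for both oils, -0.046 to 0.065 CPM for DHA oil, -0.046 to 0.026 CPM for fish oil and -0.072 to 0.026 CPM between the oils.

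The titles give the diets the same replicate numbers, but same-numbered libraries did not deviate together (correlations from -0.171 to 0.182), so the numbers were not taken as pairs. With the replicate number as a block, 12 genes were called for both oils against control, 1 for DHA oil, 0 for fish oil and 0 between the oils. Under that block the log2 fold change was -0.0043 for LTA4H and -0.027 for EPHX1 with both oils against control, 0.16 for ALOX5 and -0.062 for EPHX1 with fish oil against control, and -0.070 for EPHX1 between the oils.

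Over all genes, edgeR called 21 for both oils against control, 0 for DHA oil, 1 for fish oil and 0 between the oils. Without the filter on low counts 76, 57, 56 and 14 were called in that order, and with the strict filter 0 in each. DESeq2 called 27 for both oils, 11 for DHA oil, 20 for fish oil and 1 between the oils. For fish oil against control edgeR called 0 with library totals alone and 7 in a fit of only these groups. Without fish oil replicates 2 and 4 it called 0 for both oils and 0 for fish oil. With single libraries left out it called 3 to 35 for both oils, 0 to 5 for DHA oil, 0 to 22 for fish oil and 0 to 1 between the oils. The cause of these moves was not tested. Depth limits ALOX5, ALOX5AP, ALOX15 and FFAR4, with at most 38 counts in a library.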

Other observations

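The genes most like the 2 members with the most counts were looked up over the 10 libraries, among all genes tested. ENSG00000110324 was most like LTA4H, with Pearson's r = 0.960 of log2 CPM, and ENSG00000167186 was most like EPHX1, with r = 0.965. Both were picked as the highest of all genes, so the size of r follows from the choice and no p is given, and neither identifier was paired with a name here.

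The soluble and the microsomal epoxide hydrolase were set against each other within each library, a ratio chosen after the data were seen. EPHX2 had 21.4, 8.46 and 21.2 counts per 100 EPHX1 counts in control replicates 1, 2 and 3. It had 9.87, 12.6 and 14.2 in DHA oil replicates 1, 2 and 3, and 14.8, 14.5, 18.4 and 13.4 in fish oil replicates 1 to 4. Control replicate 2 was the lowest library of all and the other controls the highest, so control spanned both oils.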
